A study of Mus musculus with 2 samples.

Results

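The genes of antigen presentation by MHC class II, together with the Langerhans cell marker Cd207, were examined in dorsal skin, with Mpzl3 null (-/-) pups set against wild-type (+/+) littermates. Probes that name 1 gene were taken where that gene was H2-Aa, H2-Ab1, H2-Eb1, Cd74, H2-DMa, H2-DMb1, Ciita or Cd207, which gave 8 genes and 13 probes of 18855 genes and 31337 probes in all. Mpzl3 encodes an immunoglobulin-like membrane protein. Cy5-labelled null RNA and Cy3-labelled wild-type RNA were hybridised together on 1 Agilent array for pups aged 1 day (P1) and on 1 further array for pups aged 9 days (P9). The sources used here do not give how the null allele was made, the strain or the number of pups behind each channel. Values are log2 ratios, null over wild type, so that a value above 0 means a higher signal in the null channel.

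MHC class II molecules present peptides taken up from outside the cell to helper T cells. An alpha chain and a beta chain form the peptide groove, the invariant chain Cd74 fills it during transport, and the H2-DM dimer exchanges a remnant of Cd74 for an antigen peptide. Ciita is the coactivator without which the class II genes are largely silent. In the epidermis, the class II bearing cells at rest are mainly Langerhans cells, which are sparse in newborn mouse skin and expand in the days after birth. Cd207, or langerin, is the lectin that forms their Birbeck granules.

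The promoters of the class II genes carry a conserved pair of elements, the X box and the Y box, to which the factors that recruit Ciita bind. The RefSeq promoter table of GRCm38.p6, which runs from 250 bases before to 50 bases after a gene's start, held promoters of 5 of the 8 genes, H2-Aa, H2-Eb1, H2-DMa, H2-DMb1 and Cd207; H2-Ab1, Cd74 and Ciita had no entry. The 3 promoters that carry both boxes are shown because their genes had unlike ratios. They lie at chr17:34287774-34288073 on the minus strand for H2-Aa, chr17:34305617-34305916 on the plus strand for H2-Eb1 and chr17:34152941-34153240 on the plus strand for H2-DMb1. Each is read 5′ to 3′ on the strand of the gene, with the X box letters CTNGNAACT (N for any base) first and the Y box letters GATTGG second in capitals.
H2-Aa: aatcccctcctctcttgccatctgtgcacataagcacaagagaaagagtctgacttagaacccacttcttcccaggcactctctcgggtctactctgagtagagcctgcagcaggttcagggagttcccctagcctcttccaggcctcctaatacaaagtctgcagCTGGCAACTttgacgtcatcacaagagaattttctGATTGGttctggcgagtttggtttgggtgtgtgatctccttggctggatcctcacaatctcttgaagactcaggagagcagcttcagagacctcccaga
H2-Eb1: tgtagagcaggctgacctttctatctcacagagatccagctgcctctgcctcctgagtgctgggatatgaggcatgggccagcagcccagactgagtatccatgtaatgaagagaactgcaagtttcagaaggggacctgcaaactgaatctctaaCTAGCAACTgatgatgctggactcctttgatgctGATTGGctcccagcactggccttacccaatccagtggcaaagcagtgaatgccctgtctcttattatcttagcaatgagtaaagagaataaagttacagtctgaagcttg
H2-DMb1: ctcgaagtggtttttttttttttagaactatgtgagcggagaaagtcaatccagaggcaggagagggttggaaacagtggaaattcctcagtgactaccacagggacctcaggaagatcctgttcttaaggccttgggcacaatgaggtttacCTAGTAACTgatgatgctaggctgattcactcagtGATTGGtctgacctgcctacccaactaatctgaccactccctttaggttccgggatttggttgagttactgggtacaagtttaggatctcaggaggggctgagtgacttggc
The X box letters were read from these 3 promoters, so their presence here is fixed by that choice. Searched on both strands, the X box letters were in 4.10% and the Y box letters in 16.1% of 32851 promoters of this length, and the searched motifs do not overlap each other. On the gene's own strand, an X box at most 40 bases before a Y box was in 9 promoters, or 0.0274%. The spacing between the boxes was 26 bases in H2-Aa, 25 in H2-Eb1 and 26 in H2-DMb1. The promoter of Cd207 held neither set of letters, and of 2 promoters listed for H2-DMa 1 held the Y box letters alone.

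Most of the class II genes lay above 0 on both arrays, by less than 2-fold. At P1, 7 of the 8 genes were above 0, with a median of 0.39 and a range from −0.06 to 0.70, and at P9 all 6 genes with a value were above 0, with a median of 0.39 and a range from 0.14 to 0.48. Over all measured genes the median was 0.06 at P1, where 55.8% were above 0, and 0.02 at P9, where 53.4% were above 0. A gene was called when the mean of its probes reached 2-fold in either direction and its probes had 1 sign. By this rule 0 of 8 genes were called at P1, against 2.88% of 17233 genes measured, and 0 of 6 at P9, against 2.7% of 18269. At a lesser size of 1.5-fold, 3 of 8 genes, H2-Eb1, H2-DMa and Cd74, were higher in null at P1, against 9.08% of all genes, and 0 of 6 at P9, against 6.17%. Each of these 3 genes was measured by 1 probe, and no member with at least 2 probes passed this size. A single array per age allows no check against replicates and no p-value, and precision is limited by that number of arrays. Among probes of the same gene the SD, pooled over all genes with at least 2 probes, was 0.36 log2 at each age, or 1.28-fold, and most of the ratios below are near or under it.

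**Figure D1:**
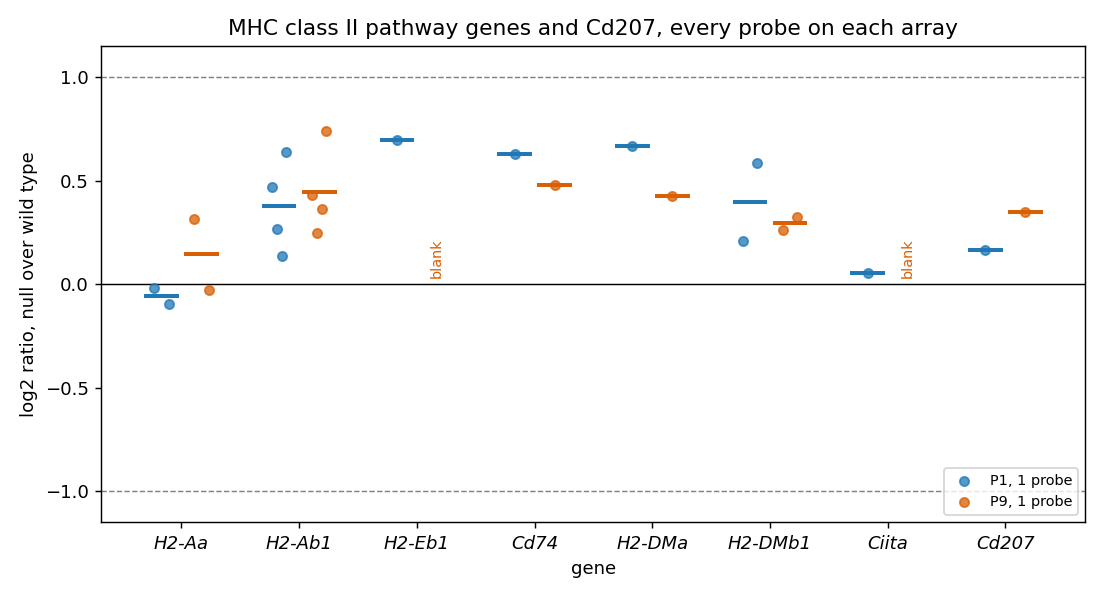
Log2 ratio of null over wild type for each of the 13 probes (points) and the mean of each gene (short lines) at P1 and P9; dashed lines mark 2-fold and "blank" marks a gene with no value on that array. Probes lie between −0.09 and 0.74, none reaches 2-fold, and H2-Eb1 and Ciita have a value at P1 only.

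Among the chains of the class II molecules, H2-Ab1 and H2-Aa, whose products pair to form the I-A molecule, had unlike ratios. H2-Ab1, the beta chain, was measured by 4 probes, at 0.47, 0.27, 0.14 and 0.64 at P1 and, in the same probe order, at 0.43, 0.25, 0.36 and 0.74 at P9. All 4 were above 0 at both ages, and the last was the highest on both arrays. The mean of H2-Ab1 was 0.38 ± 0.22 at P1, or 1.30-fold, and 0.44 ± 0.21 at P9, or 1.36-fold (SD, 4 probes). H2-Aa, the alpha chain, was at −0.02 and −0.09 by its 2 probes at P1, and at 0.32 and −0.03 at P9. Its mean was −0.06 ± 0.05 at P1 and 0.14 ± 0.24 at P9 (SD, 2 probes), with 39.1% of all genes lower at P1 and 66.2% at P9. The probes of H2-Aa thus lay below all those of H2-Ab1 at P1, and those of the 2 genes overlapped at P9. H2-Eb1, the beta chain of the I-E molecule, was at 0.70 at P1 by its only probe, 1.62-fold higher in null and the highest of the 8 genes, with 94.5% of all genes lower. It was blank at P9. The alpha chain of I-E, H2-Ea, was at 0.01 at P1 by 1 probe and blank at P9. The chains are related in sequence, so a probe may take up signal of a relative, which was not tested.

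The genes that load the groove were above 0 at both ages. Cd74, the invariant chain, was at 0.63 at P1, or 1.54-fold, and 0.48 at P9, or 1.39-fold, by 1 probe, and was the highest of the 6 genes at P9, with 90.8% of all genes lower. H2-DMa, the alpha chain of the peptide exchange factor, was at 0.67 at P1, or 1.59-fold, and 0.43 at P9, or 1.34-fold, by 1 probe. H2-DMb1, its beta chain, was at 0.21 and 0.58 by 2 probes at P1 and at 0.26 and 0.33 at P9, with means of 0.40 ± 0.27 and 0.29 ± 0.04 (SD, 2 probes). The neighbouring beta chain gene H2-DMb2, which is not among the 8 and closely resembles H2-DMb1, was at −0.14 at both ages by 1 probe. The probes of H2-DMb1 and the probe of H2-DMb2 therefore differed in sign on both arrays.

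Ciita, the class II coactivator, was at 0.05 at P1 by 1 probe, 1.04-fold, with 49.1% of all genes lower, and was blank at P9. Its ratio thus lay at the middle of all genes on the array where H2-Eb1, H2-DMa and Cd74 were above 1.5-fold. Cd207 was at 0.16 at P1, or 1.12-fold, and 0.35 at P9, or 1.27-fold, by 1 probe, with 60.2% and 84.5% of all genes lower. In order at P1, the genes ran H2-Eb1, H2-DMa, Cd74, H2-DMb1, H2-Ab1, Cd207, Ciita and H2-Aa, and at P9 Cd74, H2-Ab1, H2-DMa, Cd207, H2-DMb1 and H2-Aa. Neighbours in either order differed by less than the SD between probes of a gene.

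**Figure D2:**
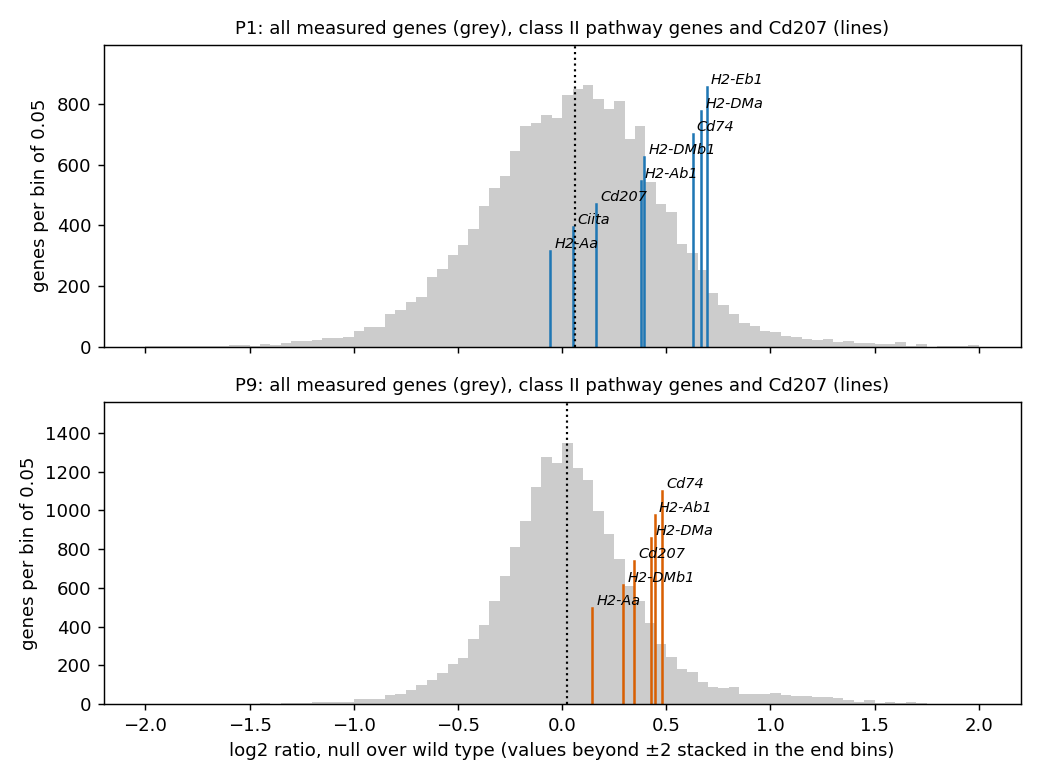
Number of measured genes by log2 ratio of null over wild type at P1 and P9 (grey, bins of 0.05), with the 8 genes as labelled lines whose heights carry no value; the dotted line is the median of all genes. At P1 the 8 genes run from −0.06 to 0.70 and at P9 the 6 with a value from 0.14 to 0.48, within the bulk of all genes and mostly to the right of the median.

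Comparing the ages asked whether the ratios differed between newborn skin and skin at 9 days. Of the 11 probes with a value on both arrays, 10 had the same sign, where 73.9% of 27054 probes naming 1 gene did. The 11 probes belong to 6 genes, with 4 from H2-Ab1 alone, and are not independent measures. The difference of P9 minus P1 had a median of −0.02 over the 6 genes measured at both ages, 3 of them higher at P9 and 3 lower, against a median of −0.01 over all genes. It ran from −0.24 for H2-DMa to 0.20 for H2-Aa, and was 0.18 for Cd207, 0.07 for H2-Ab1, −0.10 for H2-DMb1 and −0.15 for Cd74. All 6 differences were smaller than the SD between probes of a gene. That SD is a spread within 1 array and does not measure variation between arrays. The dyes were not swapped, so dye and genotype cannot be told apart on either array. At P9 the channels also differed in sex-linked transcripts, with Xist at 3.67 and the Y-linked genes Eif2s3y, Kdm5d and Uty at −3.98, −1.76 and −1.99; at P1 Xist was at −1.03 (4 probes from −1.42 to 0.12) and Uty at 0.33 (2 probes from −0.07 to 0.73), with Eif2s3y and Kdm5d blank. Sex and genotype cannot be told apart at P9, and at P1 these probes, of mixed sign, do not settle whether the channels differ in sex. Mpzl3 itself was at −0.21 at P1 and 0.20 at P9 by 1 probe; the sources used here do not place it relative to the deleted part, so it does not check the labels.

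Except for Cd74, Ciita and Cd207, the 8 genes lie together on chromosome 17, and at P1 most genes among and around them were above 0 as well, H2-Ob, H2-DMb2 and Btnl1 being below. Genes were taken in their order in the RefSeq table, protein-coding and measured, a selection made after the data were seen. The 6 genes between H2-DMa and H2-Eb1 that are not among the 8 had a median of 0.19 at P1 and 0.20 at P9, with 4 of 6 above 0 at each age. They comprise the class I peptide transporter genes Tap1 at 0.24 and 0.14 (P1, then P9) and Tap2 at 0.37 and 0.44, and the immunoproteasome genes Psmb8 at 0.16 and 0.41 and Psmb9 at 0.22 and 0.26. The others were H2-DMb2 and H2-Ob, the beta chain of the H2-DM inhibitor, at −0.32 and −0.20. Of the 8 nearest genes on each side, 14 of 15 with a value were above 0 at P1, with a median of 0.34, and 14 of 16 at P9, with a median of 0.14. They include genes with no part in antigen presentation, such as the polycomb gene Ring1 at 0.50 and 0.16, the zinc transporter gene Slc39a7 at 0.28 and 0.12, the homeobox gene Pbx2 at 0.41 and 0.12 and the receptor gene Notch4 at 0.68 and 0.04. With 20 genes on each side the median was 0.38 at P1, with 36 of 38 above 0, and 0.13 at P9, with 29 of 40 above 0. All measured protein-coding genes of the chromosome other than the 8, flanking genes included, had medians of 0.16 at P1 and 0.07 at P9. Relative to the 8 genes on each side, the median of the class II genes and Cd207 was 0.04 at P1 and 0.25 at P9. That median includes Cd74, Ciita and Cd207, which lie on other chromosomes, so it is not a comparison within this stretch alone. What part a shift common to this stretch of the chromosome has in the class II ratios was not tested.

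**Figure D3:**
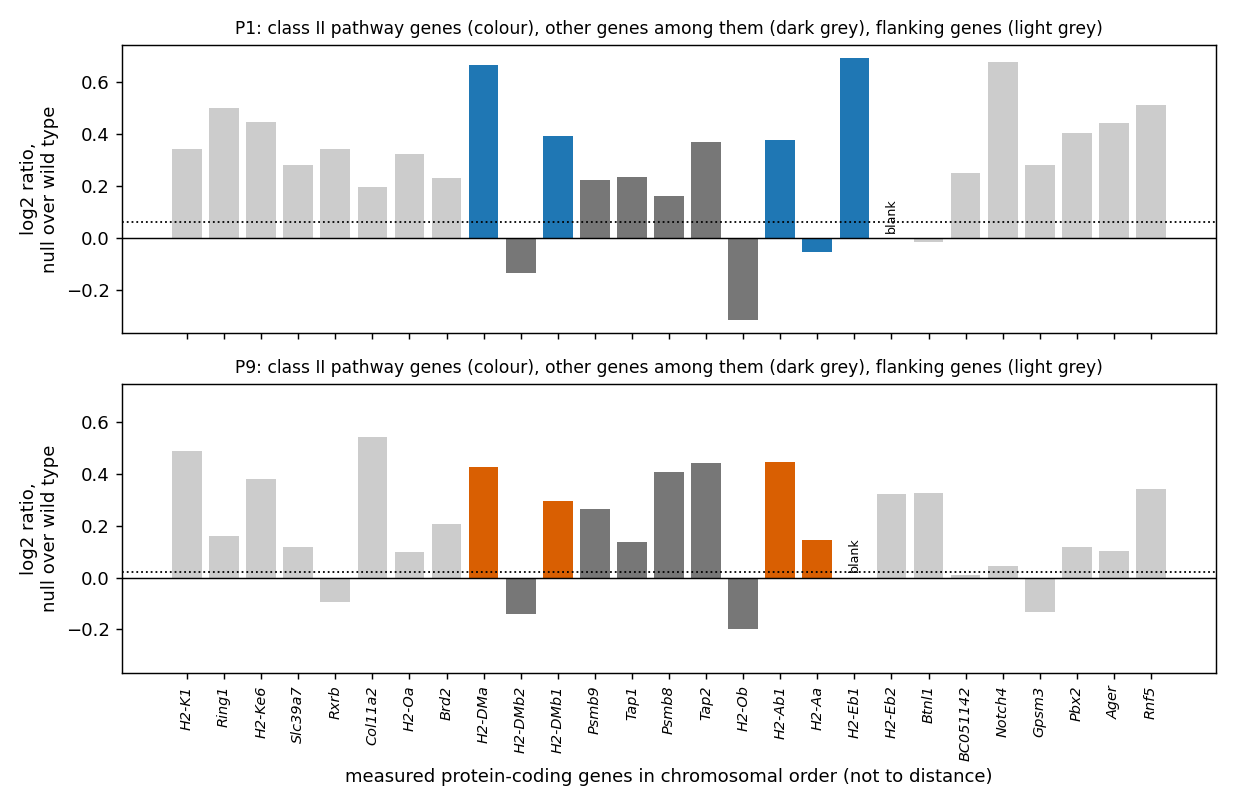
Log2 ratio of null over wild type for measured protein-coding genes in their order along chromosome 17, at P1 and P9, with the class II pathway genes in colour, other genes among them in dark grey and 8 genes on each side in light grey; the dotted line is the median of all genes. The flanking genes have a median of 0.34 at P1 and 0.14 at P9. The class II genes and Cd207 have a median of 0.39 at each age, which includes genes not drawn here. Cd74, Ciita and Cd207 lie on other chromosomes and are not drawn.

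Other genes of the class II pathway had medians nearer to 0. The remaining class II genes had medians of −0.07 at P1 and −0.02 at P9, with 2 of 4 measured genes above 0 at each age. Among them H2-Oa, the alpha chain of the H2-DM inhibitor, was at 0.32 and 0.10, and H2-Eb2 at 0.32 at P9 alone. Genes of antigen processing had medians of −0.06 over 10 genes at P1 and 0.12 over 9 genes at P9. Ctss, the cathepsin that trims Cd74, was at −0.72 at P1 and −0.01 at P9. Lgmn, the asparagine endopeptidase, was at −0.08 and the lowest at P9, at −0.37. Cst3, a cathepsin inhibitor, was at −0.60 at P1 and blank at P9, and Ctsz, a cathepsin, was at 0.53 and 0.47. Ifi30, the thiol reductase of antigen processing, was at 0.26 and 0.39. In both lists 0 genes passed 2-fold at either age.

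Upstream of Ciita, the interferon-gamma axis, which induces class II outside professional antigen presenting cells, was not above the median of all genes. Its list had a median of −0.18 at P1, with 2 of 9 genes above 0, and −0.07 at P9, with 4 of 9 above 0. Its lowest gene was Jak2 at P1, at −0.76 (−0.07 at P9), and Irf2 at P9, at −0.85 (−0.41 at P1). Its highest at both ages was Socs1, a feedback inhibitor of interferon signalling, at 0.32 and 0.99. The factors that bind class II or Ciita promoters had medians of 0.14 at P1 and 0.01 at P9 over 11 genes. Irf4 was the highest at P1, at 0.81, and was at 0.01 at P9, whereas Creb1 was the lowest at both ages, at −0.38 and −0.30. Nfyc, a subunit of the factor that binds the Y box, was at 0.35 and was the highest at P9, at 0.29. The other subunit genes of that factor were Nfya at 0.19 and 0.04 and Nfyb at −0.27 and −0.04. Both had probes of opposite sign at P9. The X box factor gene Rfx5 was at −0.18 at both ages, but its 2 probes had opposite signs at P9, at −0.42 and 0.06. Of the other subunit genes of that factor, Rfxank was at 0.36 and 0.19 by 1 probe. Rfxap was at −0.01 and 0.01, with probes of opposite sign at both ages. In these lists, which share Irf1, 0 genes passed 2-fold.

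MHC class I presentation, which displays peptides from inside the cell, lay nearer to the class II genes. Its list had medians of 0.24 at P1, with 13 of 17 genes above 0, and 0.29 at P9, with 14 of 17 above 0, and 0 passed 2-fold. This list is not separate from the stretch of chromosome 17 described above. Tap1, Tap2, Psmb8 and Psmb9 lie between H2-DMa and H2-Eb1, and H2-K1 is a flanking gene, so their values enter both. Of the heavy chain genes H2-K1, H2-D1, H2-Q4, H2-Q7, H2-T23 and H2-M3, 5 of 6 were above 0 at each age, with medians of 0.40 at P1 and 0.56 at P9. H2-Q7 was the highest, at 0.57 and 0.81, and H2-M3 was at −0.54 and −0.24. B2m, the light chain common to class I molecules, was at −0.65 at P1 and close to 0 at P9. Erap1, the peptide-trimming enzyme, was at −0.39 and was the lowest at P9, at −0.34. The heavy chains resemble one another in sequence, and single members are uncertain.

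Markers of the cells that carry class II were examined as lists. In whole skin, a change in the number of such cells and a change in RNA per cell cannot be told apart, and ratios show no level, so the presence of a cell type was not checked. Further genes of Langerhans cells had medians of 0.05 at P1, with 8 of 13 above 0, and 0.17 at P9, with 9 of 13 above 0. Runx3, a transcription factor needed for Langerhans cells, was at 0.87 and 0.62, and Epcam at 0.28 and 0.58. Cd1d1, an antigen presenting molecule for lipids, was at −0.59 at P1 and passed 2-fold at P9, at −1.08, and Cd24a was at −0.98 and −0.50. Epcam, Cdh1 and Cd24a are expressed in keratinocytes too. Genes for signals on which Langerhans cells depend had medians of 0.08 at P1, with 6 of 11 above 0 and a range from −0.68 to 0.81, and 0.31 at P9, with 7 of 11 above 0 and a range from −0.42 to 1.81. Il34, the keratinocyte ligand for the receptor Csf1r, was at 0.65 and 0.48, and Tgfb1 at 0.81 and 0.38. Below 0 at both ages were Tslp, a cytokine of keratinocytes, at −0.68 and −0.10, and the integrin gene Itgb8 at −0.25 and −0.19. The receptor gene Tgfbr1 was below 0 as well, at −0.13 and −0.42, but its 2 probes had opposite signs at P1. Itgb6, another integrin gene, was at −0.49 at P1 and at 0.03 at P9, with probes of mixed sign at P9. Csf1r, listed with the Langerhans and macrophage genes, was at 0.30 and 0.24. Ccl20, which attracts Langerhans cell precursors, was at −0.41 at P1 and at 1.81 at P9, where it was the only gene of that list past 2-fold; each value is from 1 probe.

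Dendritic cell genes had medians of 0.10 at P1, with 11 of 15 above 0 and a range from −0.37 to 0.90, and 0.18 at P9, with 10 of 14 above 0 and a range from −0.17 to 1.12. Itgax, which encodes CD11c, was at 0.70 at P1 and passed 2-fold at P9, at 1.12. Its 2 probes lay apart, at 0.26 and 1.14 at P1 and at 0.65 and 1.60 at P9, so 1 of them was below 2-fold at P9. Batf3 and Xcr1, genes of cross-presenting dendritic cells, were at 0.90 and 0.57 at P1 and at 0.36 and 0.87 at P9, by 1 probe each. Clec9a had no value at either age. Below 0 at both ages were Zbtb46 at −0.09 and −0.10, with probes of mixed sign, Cd209a at −0.15 and −0.06, and Cd83 at −0.13 and −0.045. The lowest genes were the costimulatory gene Cd86 at P1, at −0.37 (0.07 at P9), and the homing receptor gene Ccr7 at P9, at −0.17 (0.10 at P1). Macrophage genes had medians of −0.10 at P1, with 5 of 14 above 0 and a range from −0.76 to 0.30, and 0.04 at P9, with 8 of 14 above 0 and a range from −0.67 to 0.32. Their lowest genes were Adgre1, which encodes F4/80, at −0.76 at P1, and Mrc1, the mannose receptor, at −0.67 at P9. Their highest were Csf1r at P1 and the scavenger receptor gene Marco at P9, at 0.32. B cell genes, whose cells carry class II as well, had medians of 0.07 over 5 genes at P1, ranging from −0.29 to 0.64, and −0.05 over 7 genes at P9, ranging from −0.45 to 1.01. Cd79a, a chain of the B cell receptor, was the lowest at P1, at −0.29, and was at 0.33 at P9. Genes of leukocytes at large had medians of 0.13 at P1, with 8 of 12 above 0 and a range from −0.76 to 0.38, and 0.28 at P9, with 10 of 12 above 0 and a range from −0.38 to 0.57. Cd52 was the highest at both ages, at 0.38 and 0.57, and Cd48 the lowest, at −0.76 and −0.38. The pan-leukocyte gene Ptprc was at −0.43 and −0.25, with probes of mixed sign at both ages (4 from −0.97 to 0.15 at P1, 3 from −0.73 to 0.16 at P9). The part of these cells in the class II ratios was not tested. With 1 array per age, no difference between lists could be tested either.

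**Figure D4:**
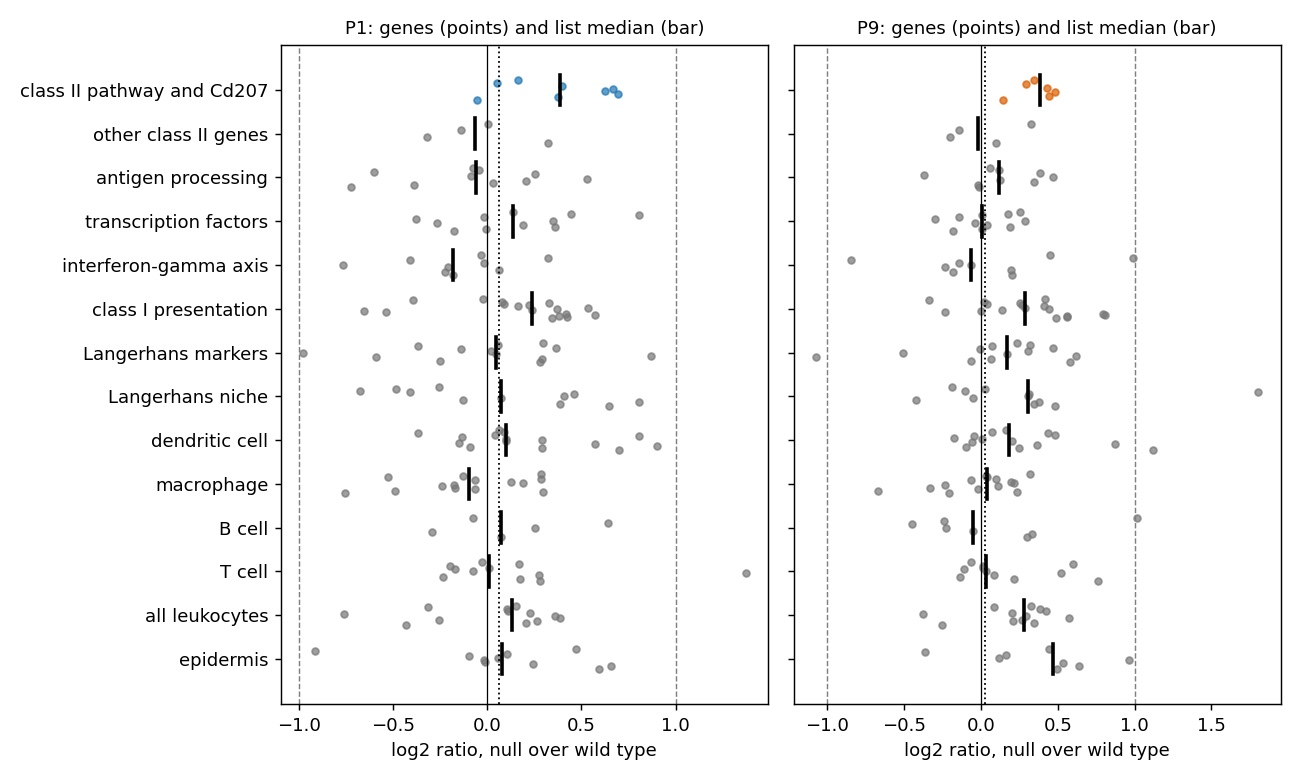
Log2 ratio of null over wild type at P1 and P9 for each gene of the class II pathway genes with Cd207 (colour) and of lists of related pathways and cell types (grey); black bars are list medians, the dotted line is the median of all genes and dashed lines mark 2-fold. The class II pathway genes with Cd207 have a median of 0.39 at each age, and other lists range from −0.18 to 0.24 at P1 and from −0.07 to 0.47 at P9.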

How the data were processed

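Per the labels' protocols, RNA was extracted with TRIzol, cleaned with the RNeasy kit, amplified with amino allyl nucleotides and hybridised with 2 dyes to Agilent Whole Mouse Genome arrays. The authors deposited log2 ratios of null over wild type for 39212 rows on 2 arrays; the sources used here do not give the background correction, the dye normalization or the reason for blanks (11.3% of the P1 column, 4.71% of the P9 column). Base 2 was inferred from the values, and direction comes from the dyes in the labels. The column medians were −0.007 at P1 and 0.005 at P9, so both appear centred. Depth does not apply, and spot intensity was not used here, so dim spots could not be set apart.

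Probes were named from the platform annotation, and symbols updated through Entrez identifiers for 31210 of 31337 probes. A gene's value is the mean of its probes. The genes and lists were chosen with earlier results of these data known. All 8 genes are named, and from each list those past 2-fold and the highest and lowest at each age; other list genes were chosen after their values were seen. Alternatives changed the size rule, probe summary, probes, centring and scaling. Python 3.11.15, numpy 2.4.6, pandas 2.3.3 and matplotlib 3.10.9 were used, and the calculation was tested on simulated data.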

Additional observations from a re-analysis of the deposited data

Results flagged for a closer look

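Some values had opposite signs at the 2 ages; with 1 array per age these differences were not tested. Among the 8 genes this was H2-Aa alone, at −0.06 at P1 and 0.14 at P9. The difference of 0.20 is smaller than the spread between probes of a gene within 1 array. Of the lists, the median of antigen processing differed by 0.17 between P9 and P1, that of macrophage genes by 0.13 and that of B cell genes by −0.12. Genes of other lists were included where both values exceeded the SD between probes, except that sex-linked genes and Mpzl3 were included at any size. Ccl20 was at −0.41 at P1 and 1.81 at P9, a difference of 2.22. Ighm, the heavy chain gene of IgM, was at 0.64 (3 probes from 0.30 to 0.98) and −0.45 (4 probes of mixed sign, from −1.20 to 0.035), a difference of −1.09. The sex-linked genes Xist and Uty also had opposite signs, with differences of 4.70 and −2.32, as did the single probe of Mpzl3, with a difference of 0.41 (0.405 before rounding). Uty at P1 and Mpzl3 at both ages were smaller in size than the SD between probes.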

How the results depend on the processing

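The median over the class II genes and Cd207 stayed above 0 under 14 alternatives at P1, from 0.04 to 0.60, and under 13 at P9, from 0.25 to 0.45. The lowest, at both ages, was the median relative to the 8 genes flanking the region on each side, an alternative chosen after seeing the data. Cd74, Ciita and Cd207 enter that median although they lie on other chromosomes. The difference between ages ran from −0.10 to 0.12 over 11 alternatives, so its sign depended on the setting. Of single genes, only H2-Aa changed sign, at P9, from −0.03 by its probe of smallest size to 0.32 by its probe of largest size. At a size of 1.5-fold, 3 of the 8 genes passed at P1, and 2757 genes in all at P1 and 1731 at P9. The counts of all genes past 2-fold, 497 at P1 and 494 at P9, were 88 and 33 over genes with at least 2 probes, and 286 and 747 after centring and scaling the arrays to a common spread. Direction at P1 depended on the number of probes. Over all genes 296 were higher and 201 lower in null, whereas over genes with at least 2 probes 15 were higher and 73 lower. At P9 the same counts were 409 higher and 85 lower, and 23 higher and 10 lower. No paired analysis was possible because each age has 1 array.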

Other observations

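T cell genes, whose products receive the class II signal, had medians of 0.01 at P1, with 6 of 11 above 0 and a range from −0.23 to 1.37, and 0.03 at P9, with 8 of 11 above 0 and a range from −0.14 to 0.76. Cd4, the coreceptor for class II, was at 1.37 at P1 by 1 probe and at 0.52 at P9 by 2 probes of opposite sign, −0.15 and 1.19, and was the only T cell gene of the list past 2-fold at either age. Cd3e was at 0.28 and 0.76, but its 2 probes had opposite signs at both ages, at −0.33 and 0.90 at P1 and −0.28 and 1.80 at P9. Cd3g was the lowest at both ages, at −0.23 and −0.14. Epidermal genes had medians of 0.08 over 10 genes at P1 and 0.47 over 8 genes at P9, where Flg, the filaggrin gene, was the highest at 0.96. Krt5, a basal keratin, was the highest at P1, at 0.66, and blank at P9, and the desmosomal gene Dsc3 was the lowest at both ages, at −0.92 and −0.36. Blk, a B cell kinase gene, passed 2-fold at P9 alone, at 1.01 by 1 probe, and was blank at P1. Of the 9 promoters with an X box at most 40 bases before a Y box, the others belong to 1700048F04Rik, BC051142, Catsper2, Dctpp1, Fam78a and Med4. BC051142 is 1 of the flanking genes described above, with ratios of 0.25 at P1 and 0.01 at P9.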
